A study of Homo sapiens with 16 samples.

Results

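The genes described here switch on the small GTPase RAC at the cell edge or tie the actin cortex to the plasma membrane. The set was TIAM1, PREX1, MTSS1, RDX, EZR, MSN, DIAPH3, RAC1 and CDC42. Of these 9 genes, 8 were among the 18417 that the arrays covered with a transcript cluster (the probes of 1 gene) annotated to that gene alone. The only cluster of EZR also carried the symbol ROS1, and EZR was therefore not given a value. The genes were chosen by the log2 differences of clone G10 from control and from clone A7, so for them the comparisons with G10 are a description and carry no test. Comparisons without G10 arrays carry the test of the fit across all clusters, but the A7 and control arrays also entered the differences used for the choice, so the A7 results of these genes are not independent of it.

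Affymetrix Human Gene 1.0 ST arrays measured total RNA of subconfluent cells in 4 groups of 4 arrays each, 16 in all, which the study describes as biological replicates. G10 and A7 were clones of the human amelanotic melanoma line A375, obtained by dilution after stable transfection with human catalase cDNA in pcDNA3. PCDNA3 cells were A375 cells carrying the empty vector, and A375 cells were not transfected. Stable transfectants were kept in geneticin. G10 and A7 are 1 clone each, so an effect of catalase and a property of the clone cannot be told apart. The study asked which genes differed between each clone and control, where control is the mean of the group means of PCDNA3 and A375 cells.

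RAC and CDC42 are molecular switches that act when loaded with GTP. Guanine nucleotide exchange factors such as TIAM1 and PREX1 load them, and GTPase activating proteins turn them off. Active RAC drives branched actin through the WAVE and Arp2/3 complexes into lamellipodia, while ezrin, radixin and moesin (the ERM proteins, encoded by EZR, RDX and MSN) fasten the actin cortex to membrane proteins. In melanoma cells, RAC signalling is known for protrusive, mesenchymal movement.

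Values are log2 intensities, and a difference of 1 between groups is a doubling. Levels were not compared between genes. As a mark for absent expression, the 95th percentile of 381 clusters of olfactory receptor genes, which lay at 5.18, was used. The array medians ran between 5.85 and 5.97. Arrays of G10 differed more among themselves than those of the other groups, with a median SD over all clusters of 0.18 in G10, against 0.16 in A7, 0.16 in PCDNA3 and 0.15 in A375 cells. CAT, which encodes catalase, averaged 8.27 ± 0.38 in G10, 9.02 ± 0.08 in A7, 8.56 ± 0.10 in PCDNA3 and 8.73 ± 0.20 in A375 cells (SD, n = 4 each). The difference from control was -0.38 in G10 (limma, adjusted p = 0.0526) and 0.37 in A7 (adjusted p = 0.124), and neither passed the limit of 0.05. The unadjusted 95% interval of the A7 difference, 0.10 to 0.65, lay above 0, and that of the G10 difference, -0.66 to -0.11, lay below it. Between G10 and A7 the CAT difference was -0.75 (adjusted p = 0.00221), without overlap of the arrays. Of 7 melanocyte markers with a value, all 7 lay above the olfactory receptor mark in G10, A7 and PCDNA3 cells and 6 in A375 cells. Of 5 endothelial markers, 1 lay above it in each group, as did 2 of 5 keratinocyte and 5 of 6 fibroblast markers. In RNA of whole cultures, fewer cells of a type and less RNA per cell cannot be told apart.

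Of the 8 genes with a value, 7 were lower and 1 was higher in G10 than in control, all 8 past an adjusted p of 0.05 in limma, against 23.7% of all genes with a value, and nothing is read from this count because G10 chose the genes. The arrays of G10 and control did not overlap for 6 of the 8, against 13.9% of all genes with a value. The median difference of the 8 genes was -1.02, and that of all clusters -0.04. The lack of overlap and the median follow from the same choice by G10, and nothing is read from them either. TIAM1, MTSS1, RDX and DIAPH3 were lower in G10 by more than 1 log2 unit. In A7, TIAM1 alone was called, and it was lower than in control. No gene of the set was called between PCDNA3 and A375 cells.

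**Figure D1:**
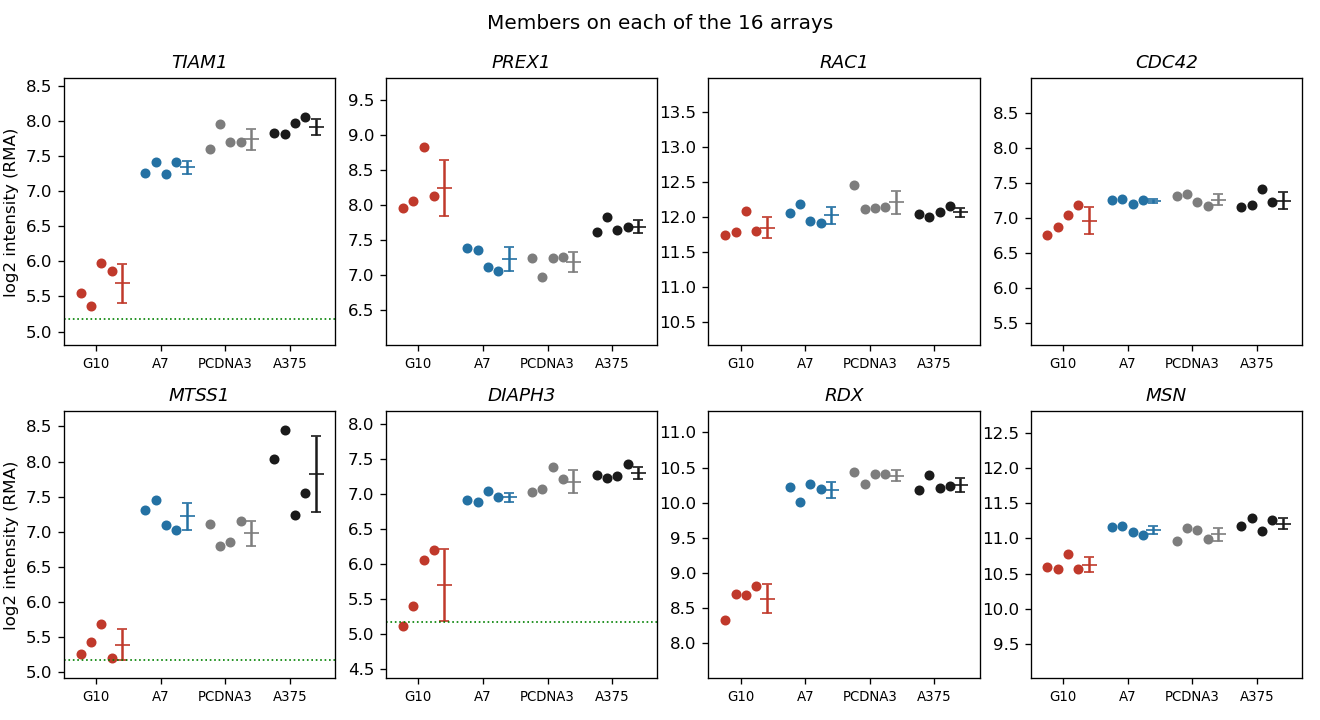
Log2 intensity of the 8 genes on each of the 16 arrays, with the mean and SD of 4 arrays beside each group of points. All panels span the same range of log2 units, and the dotted line marks the olfactory receptor level of 5.18. The G10 points of TIAM1, MTSS1, DIAPH3, RDX and MSN lie below all others and those of PREX1 above all others, while RAC1 and CDC42 overlap with control.

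TIAM1 encodes an exchange factor for RAC that acts at cell contacts and leading edges. The stretch of 250 bases before its start is shown because it and that of DIAPH3 are the ones in the set with CCAAT boxes. It lies at chr21:31559088-31559337 on the minus strand (GRCh38.p14, RefSeq), and capitals mark CCAAT or GGGCGG on either strand.

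TIAM1: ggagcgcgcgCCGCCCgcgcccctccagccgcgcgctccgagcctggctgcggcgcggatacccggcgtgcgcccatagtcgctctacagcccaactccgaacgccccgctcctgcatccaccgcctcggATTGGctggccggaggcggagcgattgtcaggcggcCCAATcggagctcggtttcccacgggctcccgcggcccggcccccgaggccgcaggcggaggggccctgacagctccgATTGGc

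The TIAM1 window held 3 matches to CCAAT and 1 to GGGCGG, and its GC content was 75.6%. Of all 35116 windows of this length, 32.0% held CCAAT and 42.6% held GGGCGG, and the median GC content was 58.0%. These letters were looked up after the sequences had been seen, and a match is not a binding site.

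In G10 cells TIAM1 had log2 intensities of 5.55, 5.36, 5.97 and 5.87, and in A7 cells of 7.26, 7.42, 7.25 and 7.42. In PCDNA3 cells the values were 7.60, 7.95, 7.70 and 7.70, and in A375 cells 7.82, 7.82, 7.97 and 8.05. The 4 groups followed each other in this order, and only PCDNA3 and A375 cells overlapped. TIAM1 was 4.41-fold lower in G10 than in control, a log2 difference of -2.14 (95% interval -2.37 to -1.91). It was 3.14-fold lower in G10 than in A7.

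In A7, TIAM1 fell by 0.49 on the log2 scale against control (SE 0.11, limma, adjusted p = 0.0122), a 1.40-fold reduction. All 4 A7 arrays lay below all 8 control arrays. It was the only gene of the set called in A7, where 7.94% of all genes with a value were called, and the only one without overlap of the arrays, against 8.48% of all genes, so the count of 1 in 8 is no result about the set. With PCDNA3 cells alone as control the difference was -0.40 and no longer passed (adjusted p = 0.0877). Without A7 replicate 1 the adjusted p was 0.0545. Between PCDNA3 and A375 cells the difference was -0.18 (adjusted p = 0.599).

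PREX1 encodes a RAC exchange factor that responds to PIP3 and to the beta and gamma subunits of G proteins. It was the 1 gene of the set that was higher in G10. In G10 cells it had 7.95, 8.06, 8.83 and 8.12, and in A7 cells 7.38, 7.36, 7.12 and 7.05. In PCDNA3 cells it had 7.24, 6.97, 7.25 and 7.26, and in A375 cells 7.61, 7.82, 7.65 and 7.68. Every G10 array lay above every other array, and A375 cells lay above A7 and PCDNA3 cells without overlap.

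The log2 difference of PREX1 between G10 and control was 0.80 (95% interval 0.52 to 1.09), or 1.75-fold. Without G10 replicate 3, the highest array, the difference was 0.61. Against A7 the difference was 1.01. A7 was not distinguished from control (-0.21, adjusted p = 0.493), and its sign depended on the control line used, being -0.46 against A375 and 0.05 against PCDNA3 cells. PCDNA3 was below A375 cells by 0.51 in the means, 7.18 ± 0.14 against 7.69 ± 0.09 (SD, n = 4 each), with no overlap of the arrays, and limma did not call it (difference -0.51, adjusted p = 0.180). PREX1 and MTSS1 were the 2 genes of the set that were lower in PCDNA3 than in A375 cells without overlap, against 6.57% of all genes with a value.

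RAC1, the GTPase that TIAM1 and PREX1 load, varied little by its brightest cluster. It averaged 11.85 ± 0.16 in G10, 12.02 ± 0.13 in A7, 12.21 ± 0.16 in PCDNA3 and 12.07 ± 0.07 in A375 cells (SD, n = 4 each). The highest G10 array, at 12.08, lay within the control range. G10 differed from control by -0.29 and A7 by -0.12 (limma, adjusted p = 0.575 for A7). The 95% interval of the A7 difference, -0.30 to 0.07, leaves room for a reduction as large as that in G10.

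RAC1 had 3 clusters, and the values above are of the brightest. A dimmer cluster averaged 8.32 in G10, 8.54 in A7, 8.93 in PCDNA3 and 8.72 in A375 cells. Its difference from control was -0.51 in G10 and -0.29 in A7 (adjusted p = 0.304 for A7). The clusters had the same direction in each clone.

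CDC42, the GTPase of filopodia and cell polarity, lay between 6.76 and 7.19 in G10, 7.20 and 7.27 in A7, 7.17 and 7.35 in PCDNA3, and 7.15 and 7.42 in A375 cells. G10 replicates 1, 2 and 3 were below all other arrays, and replicate 4 was within the control range. The difference from control was -0.29 in G10 and -0.01 in A7 (adjusted p = 0.962, 95% interval -0.19 to 0.16). With 1.22-fold in G10, RAC1, by its brightest cluster, and CDC42 had the smallest differences of the set. The dimmer RAC1 cluster was 1.42-fold lower in G10, as was MSN.

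MTSS1 encodes an inverse BAR protein that bends the membrane outwards and binds actin. In G10 cells it had 5.26, 5.43, 5.69 and 5.20, close to the olfactory receptor mark of 5.18. In A7 cells it had 7.31, 7.45, 7.10 and 7.03, in PCDNA3 cells 7.11, 6.80, 6.86 and 7.15, and in A375 cells 8.04, 8.45, 7.23 and 7.56. All G10 arrays were below all others by more than 1 log2 unit. The A375 arrays were above all PCDNA3 arrays and spread more widely than any other group of this gene.

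MTSS1 was 4.02-fold lower in G10 than in control, a log2 difference of -2.01 (95% interval -2.39 to -1.63), and 3.55-fold lower than in A7. The size depended on the control line, being -1.59 against PCDNA3 and -2.43 against A375 cells. In A7 the difference from control was -0.18 (adjusted p = 0.699), and its sign turned with the control line, 0.24 against PCDNA3 cells and -0.60 against A375 cells. PCDNA3 cells had a lower mean than A375 cells, 6.98 ± 0.18 and 7.82 ± 0.54 (SD, n = 4 each), a difference of -0.84 that limma did not call (adjusted p = 0.0995). The spread of the A375 arrays, an SD of 0.54, enters every MTSS1 comparison with control.

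RDX encodes radixin, an ERM protein that joins actin filaments to membrane receptors. The 250 bases before its start (chr11:110296615-110296864, minus strand, GRCh38.p14, RefSeq) are shown as a contrast to TIAM1, since RDX was similarly lower in G10. Capitals mark GGGCGG.

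RDX: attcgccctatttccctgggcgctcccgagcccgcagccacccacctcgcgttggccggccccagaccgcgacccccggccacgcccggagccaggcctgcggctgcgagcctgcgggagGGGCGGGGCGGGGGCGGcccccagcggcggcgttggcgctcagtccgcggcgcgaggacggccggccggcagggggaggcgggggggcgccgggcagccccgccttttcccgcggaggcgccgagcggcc

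The RDX window held 3 matches to GGGCGG, some of which share bases, and none to CCAAT, and its GC content was 82.0%. The windows of PREX1, EZR, MSN and CDC42 held GGGCGG and no CCAAT either. Of the 9 genes, 7 had such a window.

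In G10 cells RDX had 8.34, 8.70, 8.69 and 8.81, and in A7 cells 10.22, 10.01, 10.27 and 10.20. In PCDNA3 cells it had 10.44, 10.27, 10.41 and 10.41, and in A375 cells 10.18, 10.39, 10.20 and 10.24. Every G10 array was more than 1 log2 unit below every other array, and the other 3 groups overlapped. RDX was 3.21-fold lower in G10 than in control (log2 difference -1.68, 95% interval -1.87 to -1.50) and 2.91-fold lower than in A7. A7 differed from control by -0.14 (adjusted p = 0.456, 95% interval -0.33 to 0.04), and PCDNA3 from A375 cells by 0.13 (adjusted p = 0.650).

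MSN encodes moesin, the ERM protein that prevails in many mesenchymal cells. Its arrays ran between 10.56 and 10.78 in G10, between 11.05 and 11.18 in A7, between 10.97 and 11.15 in PCDNA3 and between 11.11 and 11.29 in A375 cells. All G10 arrays lay below all others. The difference from control was -0.51 in G10, or 1.42-fold, and -0.01 in A7 (adjusted p = 0.953, 95% interval -0.16 to 0.13). RDX and MSN were thus lower together in G10, RDX by the larger log2 difference (not tested).

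DIAPH3 encodes a formin that elongates unbranched actin filaments and takes part in cytokinesis. The 250 bases before its first start (chr13:60163929-60164178, minus strand, GRCh38.p14, RefSeq) are the other window with CCAAT. Capitals mark CCAAT or GGGCGG on either strand.

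DIAPH3: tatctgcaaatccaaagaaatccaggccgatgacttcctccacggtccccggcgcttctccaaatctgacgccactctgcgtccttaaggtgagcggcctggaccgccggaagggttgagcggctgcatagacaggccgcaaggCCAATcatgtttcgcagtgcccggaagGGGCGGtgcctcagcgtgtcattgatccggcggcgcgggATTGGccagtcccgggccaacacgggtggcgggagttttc

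This window held 2 matches to CCAAT and 1 to GGGCGG, with a GC content of 62.4%. In G10 cells DIAPH3 had 5.13, 5.41, 6.05 and 6.20, and in A7 cells 6.92, 6.89, 7.04 and 6.95. In PCDNA3 cells it had 7.03, 7.06, 7.39 and 7.22, and in A375 cells 7.27, 7.23, 7.25 and 7.42. G10 was below all other arrays and was the most scattered group, with 1 array under the olfactory receptor mark.

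DIAPH3 was 2.90-fold lower in G10 than in control (log2 difference -1.54, 95% interval -1.87 to -1.21) and 2.38-fold lower than in A7. In A7 it differed from control by -0.28 (adjusted p = 0.389). When only the arrays compared entered the fit, this difference passed (adjusted p = 0.0436). Because DIAPH3 serves dividing cells, 24 mitotic genes were set beside it. Of these, 14 fell and none rose in G10 against control (limma, adjusted p under 0.05), with a median difference of -0.47, against 10.5% of all genes with a value called lower. All 24 lay above the olfactory receptor mark in at least 1 group, which not all genes with a value did, so these shares are not like for like.

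PLK1, a kinase of mitotic entry, fell by 1.22 in G10 (adjusted p = 8.50e-05), and ANLN, which encodes the cytokinesis protein anillin, fell by 0.93 (adjusted p = 0.00248). TOP2A, a topoisomerase of dividing cells, differed by 0.00 (adjusted p = 0.988) and MKI67, a proliferation marker, by -0.24 (adjusted p = 0.480). In A7, 1 of the 24 mitotic genes fell, or 4.17%, against 7.94% of all genes with a value called, with a median of -0.32. For 2 the G10 value was below that of A7 past the limit, or 8.33%, against 20.7% of all genes called. Both shares lay under those of all genes. Without G10 replicate 1 the count of fallen genes in G10 was 8, and without G10 replicate 2 it was 7. The part of cell division in the DIAPH3 values was not tested.

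**Figure D2:**
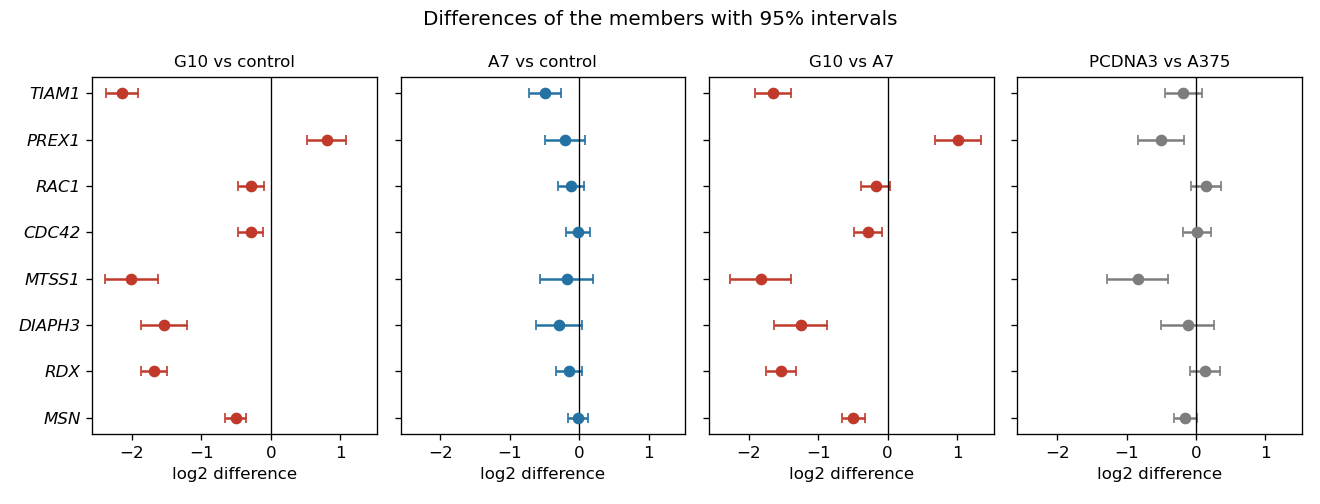
Log2 difference of the 8 genes in the comparisons of G10 and A7 with control, of G10 with A7 and of PCDNA3 with A375 cells. Points are the limma estimates and bars their 95% intervals, without adjustment for the number of genes. TIAM1, MTSS1, RDX and DIAPH3 lie left of -1 in both comparisons of G10, and the A7 intervals of all genes but TIAM1 include 0.

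The direction in A7 was negative for all 8 genes, with a median of -0.16, against -0.02 for all clusters, but only TIAM1 passed, and the G10 and A7 comparisons share their control arrays. Between G10 and A7, 5 genes of the set were lower and 1 was higher past an adjusted p of 0.05, against 20.7% of all genes with a value, and 7 did not overlap, against 22.7%, and nothing is read from these counts because this difference was used for the choice. Between PCDNA3 and A375 cells the count was 0 of 8, against 0.163% of all genes with a value. PREX1 and MTSS1 had an unadjusted p under 0.05 there, and both were lower in PCDNA3. Weighting the arrays by their scatter brought both under the limit, with an adjusted p of 0.0489 for PREX1 in PCDNA3 vs A375 and of 0.0485 for MTSS1 in PCDNA3 vs A375.

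Around these genes, 172 other genes of RAC and CDC42 signalling and of the actin cortex were listed by function, in 8 lists, and 158 had a value. These were tested in all comparisons. In G10, 25 were upregulated and 31 downregulated against control, 35.4% of those measured, where 23.7% of all genes with a value were called. In A7, 11 were upregulated and 5 downregulated, or 10.1%, against 7.94% of all genes. Between G10 and A7, 19 were higher and 28 lower in G10, or 29.7%, against 20.7% of all genes. Between PCDNA3 and A375 cells limma called 0, against 0.163% of all genes with a value, while 28 had an unadjusted p under 0.05. The share of all genes under that unadjusted limit is not given, so nothing is read from the 28. Of the 158, 138 lay above the olfactory receptor mark in at least 1 group, as did at least 13752 of all 18417 genes with a value. Genes under the mark enter the shares of all genes, and shares among genes above it alone are not given. The shares called by list, below, stand against 23.7% of all genes in G10 and 7.94% in A7. A share near these is no result about the list.

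Among 43 exchange factors, 7 rose and 9 fell in G10 (37.2% called, median 0.06). In A7, 4 rose and 2 fell (14.0% called, median 0.00). ELMO1, the partner of DOCK exchange factors, fell in both clones, by 1.08 in G10 (adjusted p = 6.05e-04) and by 0.98 in A7 (adjusted p = 0.00427). TIAM2, the close relative of TIAM1, averaged 6.59 ± 0.18 in G10, 7.24 ± 0.26 in A7, 7.54 ± 0.16 in PCDNA3 and 7.75 ± 0.20 in A375 cells (SD, n = 4 each). It fell by 1.05 in G10 (adjusted p = 1.58e-05), and in A7 the difference of -0.40 did not pass (adjusted p = 0.0676). KALRN, which encodes the exchange factor kalirin, had a log2 difference of -0.85 in G10 (adjusted p = 3.60e-06). Its G10 mean of 4.99 lay under the olfactory receptor mark, and with G10 raised to that mark the difference was at least as large as -0.67.

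A second group of exchange factors rose in A7. DOCK10 rose by 1.11 in A7 (adjusted p = 3.37e-06) and by 0.55 in G10 (adjusted p = 8.69e-04). SWAP70, a protein that binds PIP3 and RAC, moved in opposite directions, with 9.61 ± 0.19 in G10, 11.04 ± 0.13 in A7, 10.42 ± 0.20 in PCDNA3 and 10.35 ± 0.09 in A375 cells. It fell by 0.78 in G10 (adjusted p = 4.06e-05) and rose by 0.66 in A7 (adjusted p = 6.33e-04). ARHGEF6, which encodes the PAK-interacting exchange factor alpha-PIX, fell by 0.64 in G10 (adjusted p = 0.0231) and rose by 0.74 in A7 (adjusted p = 0.0254). Unlike SWAP70, its G10 arrays overlapped with control. They had 8.44, 8.54, 7.23 and 7.82, and the control arrays ran from 8.45 to 8.84. DOCK2, best known from leukocytes, rose by 0.49 in A7 (adjusted p = 0.0233), and its G10 mean of 4.77 lay under the olfactory receptor mark. In G10 its difference from control was -0.51 (adjusted p = 0.00667), but only at least as large as -0.10 with the G10 arrays raised to the mark. Of the leukocyte markers, 2 of 5 lay above that mark in G10 and in A7 and 1 of 5 in PCDNA3 and A375 cells, and PTPRC, which defines leukocytes, lay under it in every group, at 2.78 in G10, 3.14 in A7, 3.05 in PCDNA3 and 3.03 in A375 cells. LYZ, which encodes lysozyme, was called higher in A7 than in control (adjusted p = 6.56e-04) and lower in G10 than in A7 (adjusted p = 9.35e-04), with 3.73 in G10, 5.09 in A7, 3.83 in PCDNA3 and 3.54 in A375 cells, all under the mark. Of the fibroblast markers, LUM, which encodes lumican, rose by 0.91 in A7 (adjusted p = 0.0172). The part of these markers in the DOCK2 values was not tested.

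TIAM2, SWAP70, CYFIP2, IQGAP2 and the mitotic gene PLK1 also stand in tables that the study drew from these arrays, and their calls are not independent of that choice.

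Of 19 GTPase activating proteins and GDIs, which hold the switch off, 2 rose and 3 fell in G10 (26.3% called, median -0.03). In A7, 1 rose (5.26% called, median 0.03). ARHGAP24, a RAC-directed activating protein that binds filamin, rose by 0.74 in G10 (adjusted p = 0.00306) and by 0.56 in A7 (adjusted p = 0.0452), a call that was lost under most other settings for A7. Its means of 5.15 in PCDNA3 and 4.99 in A375 cells lay under the olfactory receptor mark. With the control arrays raised to that mark, the difference was at least 0.60 in G10 and 0.42 in A7. ARHGAP32 fell by 0.50 in G10 (adjusted p = 0.00766), as did ARHGAP1, by 0.50 (adjusted p = 0.00879). Of 7 related GTPases, 1 fell in G10 (median -0.24) and none passed in A7, where 4 had an unadjusted p under 0.05 (median 0.06). That 1 was RHOU, a CDC42-like GTPase, which fell by 0.64 (adjusted p = 0.0122). Between G10 and A7, RHOJ differed by -0.81 (adjusted p = 0.00453) and RHOG by -0.46 (adjusted p = 0.0214), while neither passed against control in either clone.

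Of 27 effectors, 4 rose and 5 fell in G10 (33.3% called, median -0.10). In A7, 1 rose and 2 fell (11.1% called, median -0.10). WASF3, encoding WAVE3, which carries the signal of RAC to Arp2/3, averaged 6.98 ± 0.36 in G10, 5.63 ± 0.09 in PCDNA3 and 5.51 ± 0.16 in A375 cells. It rose by 1.41 in G10 (adjusted p = 9.00e-07), and in A7 the difference was 0.23 (adjusted p = 0.378). CYFIP2, a WAVE subunit that binds RAC, rose by 1.35 in G10 (adjusted p = 2.75e-05) and by 0.84 in A7 (adjusted p = 0.00535). The other WAVE subunits with a value were not called in G10, with differences of -0.22 for WASF2, -0.10 for CYFIP1, -0.19 for NCKAP1, 0.08 for ABI1, -0.13 for ABI3 and -0.03 for BRK1, and with NCKAP1L under the olfactory receptor mark.

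CDC42EP3, a septin-binding effector of CDC42, fell by 1.21 in G10 (adjusted p = 4.03e-04). Its G10 arrays had 7.49, 7.72, 8.96 and 8.45, so replicates 3 and 4 lay nearer to control than 1 and 2. The G10 arrays of ELMO1, DIAPH1, STK10, ARHGAP1, RHOG and PACSIN3, among others, were split in the same way, as were those of TIAM1 and DIAPH3. Those of ARHGEF6 and ARPC1B were split in the opposite way. When arrays were weighted by their scatter, G10 replicates 3 and 4 had the lowest weights of all arrays, 0.39 and 0.46. The weights of G10 replicates 1 and 2 were 1.09 and 1.57. The split was not counted over all genes. CDC42EP2 of the same family fell by 0.65 in G10 (adjusted p = 8.46e-05) and by 0.40 in A7 (adjusted p = 0.0126). IQGAP2, a scaffold for RAC1 and CDC42, had a difference of -1.12 in G10 (adjusted p = 4.27e-05), at least as large as -0.92 with the G10 arrays raised to the olfactory receptor mark. PARD6B, a polarity protein bound by CDC42, fell by 0.32 in A7 (adjusted p = 0.0177), and in G10 its difference was -0.20 (adjusted p = 0.0817).

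The Arp2/3 complex nucleates branched actin. Of its 7 subunit genes with a value, 3 fell and 1 rose in G10 (median -0.21), and 1 fell in A7 (median 0.00). ARPC1A fell in both clones, by 0.42 in G10 (adjusted p = 2.41e-04) and by 0.41 in A7 (adjusted p = 9.27e-04). Its relative ARPC1B fell by 0.60 in G10 (adjusted p = 8.00e-04), and in A7 the difference was -0.10 (adjusted p = 0.726). ARPC2 fell by 0.25 in G10 (adjusted p = 0.0242), which did not pass after centring of the arrays on their medians or with either control line alone. ACTR3 differed by -0.21 in G10 (adjusted p = 0.0502) and was lower in G10 than in A7 (-0.29, adjusted p = 0.0180).

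Of 28 partners of the ERM proteins and other cortical linkers, 6 rose and 5 fell in G10 (39.3% called, median 0.08). In A7, 2 rose (7.14% called, median 0.00). STK10, a kinase that phosphorylates ERM proteins, averaged 8.85 ± 0.45 in G10, 9.88 ± 0.23 in A7, 9.63 ± 0.10 in PCDNA3 and 9.54 ± 0.06 in A375 cells and fell by 0.73 in G10 (adjusted p = 0.00233). TLN2, a talin that couples integrins to actin, fell by 0.79 in G10 (adjusted p = 2.61e-04). EPB41L2, a band 4.1 protein of the membrane skeleton, rose by 0.80 in G10 (adjusted p = 2.04e-06), and its A7 difference was 0.01 (adjusted p = 0.979).

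EPB41L4A, whose product carries a FERM domain like the ERM proteins, rose in A7. It averaged 6.20 ± 0.44 in A7, against 3.37 ± 0.16 in PCDNA3 and 3.37 ± 0.13 in A375 cells, both under the olfactory receptor mark. The difference was 2.83 (adjusted p = 6.33e-08), at least 1.03 with the control arrays raised to the mark. In G10 it stayed under the mark, with 3.64 ± 0.39. EPB41L5, another FERM protein, rose by 0.55 in A7 (adjusted p = 0.00350).

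Of 12 other formins, 4 rose and 2 fell in G10 (50% called, median -0.02). In A7, 2 rose (16.7% called, median 0.05). The DIAPH relatives differed in direction, since DIAPH2 rose by 0.77 (adjusted p = 3.15e-04) and DIAPH1 fell by 0.64 (adjusted p = 0.00873) in G10. DAAM2 fell by 0.54 in G10 (adjusted p = 0.00169). DAAM1, an effector of WNT polarity signalling, rose in both clones, by 0.40 in G10 (adjusted p = 0.0106) and by 0.45 in A7 (adjusted p = 0.0138). FHOD3 lay above control by 0.46 in A7 (adjusted p = 0.00434) and by 0.27 in G10 (adjusted p = 0.0427). Its G10 mean of 5.69 was level with the PCDNA3 mean of 5.67, so the G10 difference came from the A375 arrays. The A375 mean of 5.17 lay under the olfactory receptor mark. PCDNA3 exceeded A375 cells by 0.50 without overlap of the arrays (limma, adjusted p = 0.0610).

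Of 15 other I-BAR and F-BAR proteins, the class of MTSS1 and its inward-bending relatives, 1 rose and 3 fell in G10 (26.7% called, median -0.12). In A7, 1 rose (6.67% called, median 0.01). PACSIN3 and PACSIN2, F-BAR proteins of endocytosis and caveolae, fell in G10 by 0.75 (adjusted p = 7.90e-05) and by 0.71 (adjusted p = 1.06e-05). FNBP1 rose by 0.41 in G10 (adjusted p = 0.00141). FCHO2, which starts clathrin-coated pits, rose by 0.47 in A7 (adjusted p = 0.0173), and in G10 the difference was -0.11 (adjusted p = 0.583).

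With A375 cells alone as control, the A7 calls of ARHGEF6, ARHGAP24, CDC42EP2, EPB41L5 and FCHO2 were lost. With PCDNA3 cells alone, those of ARHGAP24, PARD6B and FHOD3 were lost, and in G10 those of ARHGAP32 and RHOU, while that of ARHGAP1 was lost with A375 cells alone. Leaving out single A7 arrays also ended calls in A7. Without A7 replicate 1, and likewise without replicate 2, ARHGEF6, ARHGAP24, CDC42EP2, PARD6B, DAAM1 and FCHO2 did not pass, and without replicate 3, ARHGEF6, ARHGAP24 and PARD6B did not. In G10, RHOU did not pass without G10 replicate 4 (adjusted p = 0.0522 for RHOU in G10 vs control), nor ARPC2 without replicate 1 or replicate 2. Between G10 and A7, RHOG was lost without G10 replicate 1 or 2 or A7 replicate 4, and ACTR3 without G10 replicate 1 or A7 replicate 2.

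**Figure D3:**
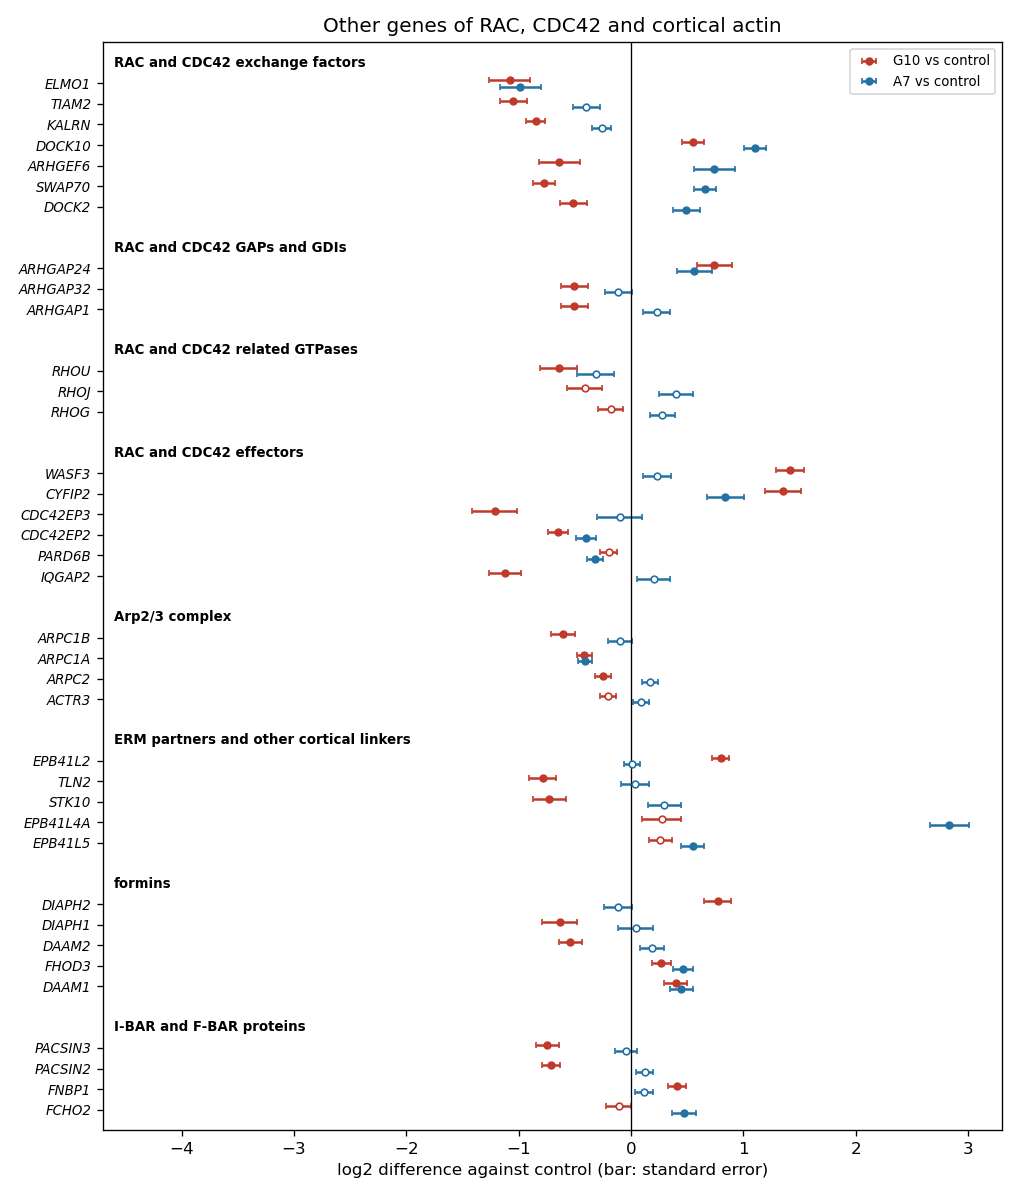
Log2 difference from control of the named genes of the 8 lists, in red for G10 and in blue for A7, with the standard error as a bar. Filled points passed an adjusted p of 0.05 and open points did not. SWAP70, ARHGEF6 and DOCK2 lie on opposite sides of 0 in the clones, and ELMO1, ARPC1A, CYFIP2, DOCK10 and DAAM1 on the same side. The G10 arrays of ARHGEF6 overlap with control, and the G10 mean of DOCK2 lies under the olfactory receptor mark.

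For the 5 genes whose group means spanned at least 1 log2 unit, the genes with the most similar course were sought among 13752 genes, by the root mean square difference of log2 values after subtracting each gene's mean over the 16 arrays. Since the clones differ from control in many genes, such likeness is a description. TIAM1 was closest to FZD7, a WNT receptor (0.17), and to LINC00200 (0.23). FZD7 averaged 7.57 in G10, 9.12 in A7, 9.29 in PCDNA3 and 9.67 in A375 cells.

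MTSS1 was closest to ARHGAP20, which encodes a GTPase activating protein (0.25), and to DPPA2 (0.31). ARHGAP20 averaged 5.20 in G10, 7.09 in A7, 6.53 in PCDNA3 and 7.74 in A375 cells. Like MTSS1 it lay lower in PCDNA3 than in A375 cells, which the choice by likeness favours. RDX was closest to TFAP2B, a transcription factor of the neural crest (0.16), and to DLAT, a subunit of pyruvate dehydrogenase (0.17). DIAPH3 was closest to VSNL1, a calcium sensor (0.17), and to SHCBP1 (0.18). PREX1 was closest to SNX25, a sorting nexin (0.17), and to RFX3, a transcription factor of ciliated cells (0.19).

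**Figure D4:**
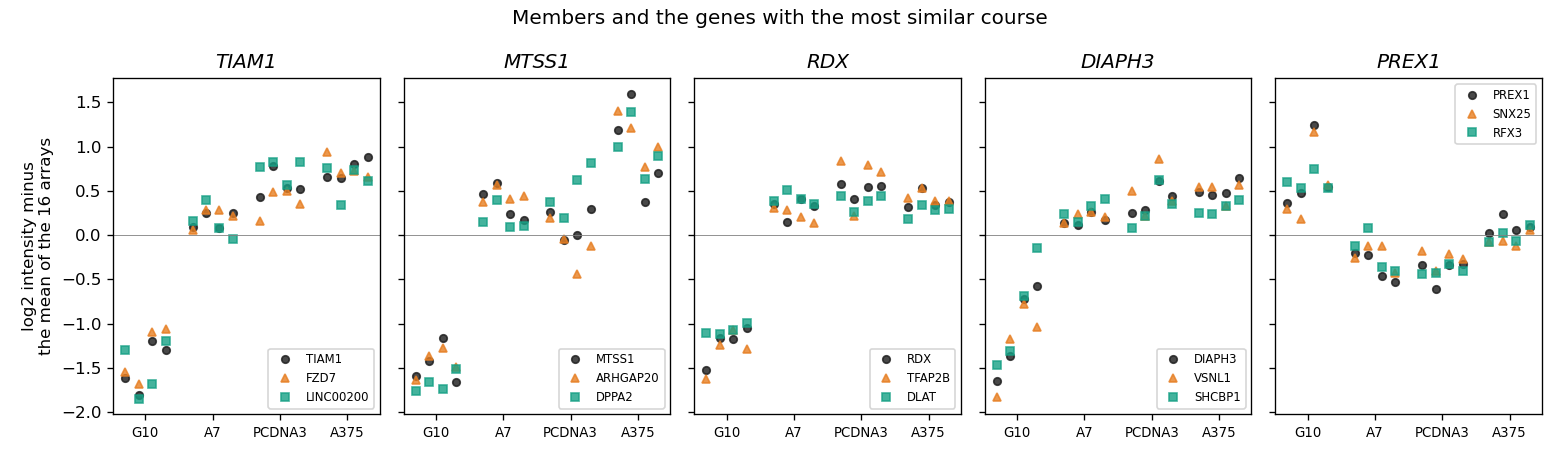
Log2 intensity minus the mean of the 16 arrays, for 5 genes of the set (black circles) and the 2 genes closest to each (coloured), array by array within each group. The G10 arrays are the lowest for TIAM1, MTSS1, RDX and DIAPH3 and the highest for PREX1. The scatter among G10 arrays of DIAPH3 appears in VSNL1 and SHCBP1 too, which their choice by likeness over the same arrays favours.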

How the data were processed

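The authors ran RMA (background correction, normalization and summary of probes), and the table they deposited holds log2 intensities for 33297 transcript clusters, which were used unchanged. Clusters were named by the array's annotation: 19460 carried 1 symbol, 1754 several and 12083 none, and only those with 1 symbol named a gene, by the brightest cluster. In R 4.3.3, limma 3.58.1 fitted 1 mean per group to all 16 arrays, with eBayes and Benjamini-Hochberg adjustment over all clusters. The precision is limited by 4 arrays per group.

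The members and lists were chosen with earlier results of these data known. All members were named, and from each list and comparison up to 3 genes with the largest difference at an adjusted p under 0.05 and 1 side above the olfactory receptor mark. Bounds use arrays raised to that mark. The fit was tested on simulated data. Promoter windows came from RefSeq (GRCh38.p14), read with pandas 2.3.3, and figures were drawn with matplotlib 3.10.9 under Python 3.11.15. Other controls, fits, weights, normalizations, limits and left-out arrays were tried as alternatives. The replicate numbers did not pair the samples.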

Additional observations from a re-analysis of the deposited data

Results flagged for a closer look

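In 180 groups of 4 arrays, Dixon's test set 8 single arrays apart, where chance alone sets about 1 in 20 apart. PREX1 had 6.97 in PCDNA3 replicate 2, against 7.24 to 7.26 in the other PCDNA3 arrays. RAC1 had 12.45 in PCDNA3 replicate 1, against 12.12 to 12.14, and 12.08 in G10 replicate 3, against 11.74 to 11.79. MSN had 10.78 in G10 replicate 3, against 10.56 to 10.60. Among the listed genes, DOCK2 had 5.60 in A375 replicate 2 (others 5.15 to 5.18), PARD6B 8.03 in A375 replicate 4 (others 8.29 to 8.32), EPB41L4A 4.22 in G10 replicate 3 (others 3.39 to 3.53) and FHOD3 6.12 in A7 replicate 2 (others 5.77 to 5.82).

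The clones differed from each other for the following genes, as the log2 difference of G10 minus A7. PREX1 differed by 1.01, with every G10 array above and every A7 array below the control mean, and this difference was not tested because G10 chose the gene. The others passed an adjusted p of 0.05 in limma. Among exchange factors the difference was -1.44 for SWAP70, -1.38 for ARHGEF6, -1.01 for DOCK2, -0.65 for TIAM2, -0.58 for KALRN and -0.56 for DOCK10. With G10 raised to the olfactory receptor mark it was at least as large as -0.59 for DOCK2 and -0.40 for KALRN. The exchange factors named here show 1 direction only. Of 43 with a value, 9 were called lower and 8 higher in G10 than in A7 (39.5%, against 20.7% of all genes). Among the higher ones, FARP1 differed by 0.91 (limma, adjusted p = 8.61e-05). Among activating proteins and GTPases the difference was -0.73 for ARHGAP1, -0.81 for RHOJ and -0.46 for RHOG. Among effectors and Arp2/3 subunits it was 1.19 for WASF3, -1.11 for CDC42EP3, -1.32 for IQGAP2, -0.51 for ARPC1B, -0.41 for ARPC2 and -0.29 for ACTR3. Among cortical linkers it was 0.79 for EPB41L2, -0.82 for TLN2, -1.02 for STK10 and -2.56 for EPB41L4A. With the G10 arrays raised to the olfactory receptor mark it was at least as large as -1.12 for IQGAP2 and -1.03 for EPB41L4A. Among formins it was 0.89 for DIAPH2, -0.68 for DIAPH1 and -0.73 for DAAM2. Among F-BAR proteins it was -0.70 for PACSIN3, -0.83 for PACSIN2, 0.29 for FNBP1 and -0.58 for FCHO2.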

How the results depend on the processing

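Of 201 recomputed counts, 175 stayed within 1.5 times the value reported, and of 1978 recomputed values of single genes, 1833 kept their direction and side of the limit, 128 lost the call, 4 gained it and 13 turned direction. The cause was not tested. At an adjusted p under 0.001, the count of listed genes was 24 in G10, 4 in A7 and 20 in G10 vs A7, that of mitotic genes in G10 was 4, and that of members in A7 was 0. With a log2 difference of at least 1 required, 4 members were called in G10 and 0 in A7, listed genes numbered 6 in G10, 2 in A7 and 8 in G10 vs A7, and mitotic genes numbered 1. Against A375 cells alone, 9 mitotic genes were called in G10, and against PCDNA3 cells alone, 0 members in A7. Fits on only the arrays compared called 2 members in A7, 31 listed genes in G10 vs A7, and in PCDNA3 vs A375 1 member (PREX1) and 2 listed genes. Array weights called 26 listed genes in A7, and in PCDNA3 vs A375 2 members and 5 listed genes. Testing only clusters above the olfactory receptor mark called 3 listed genes in PCDNA3 vs A375. Shares of all genes called under these settings, and under those in the paragraphs below, are not given. The counts therefore show how the number of calls shifts, not whether it exceeds the share of all genes.

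With 1 array left out, the counts ran from 0 to 1 for members in A7 (0 without A7 replicate 1), from 9 to 17 for listed genes in A7 (9 without A7 replicate 1 and 10 without A7 replicate 2) and from 7 to 19 for mitotic genes in G10. Against PCDNA3 cells alone the A7 difference turned to 0.0462 for PREX1 (adjusted p = 0.931), 0.24 for MTSS1 (adjusted p = 0.643) and 0.0627 for MSN (adjusted p = 0.783). With 1 array left out, the A7 difference ran from -0.0344 to 0.00973 for MSN and from -0.0294 to 0.0152 for CDC42, and the difference of CDC42 between PCDNA3 and A375 cells from -0.0178 to 0.0713.

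Correlations of deviations between arrays of the same number ran between -0.16 and 0.23, with 3 of 24 over 0.1, so the numbers were not taken as pairs. With the replicate block, the called counts were 7 members and 57 listed genes in G10, 1 and 17 in A7, 6 and 43 in G10 vs A7, and 0 and 0 in PCDNA3 vs A375, and ARHGAP24 in A7 vs control did not pass (adjusted p = 0.0871).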
